A study of Mus musculus with 12 samples.

Results

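Interferon-stimulated genes (ISGs) are the genes that cells switch on when an interferon binds its receptor. A set of 44 mouse ISGs was followed here in whole liver of mice with alcohol-associated steatohepatitis (ASH). The members are sensors of viral RNA, transcription factors of the response, antiviral effectors, GTPases of cell-autonomous immunity and parts of the antigen-processing machinery. They were taken by their GENCODE M21 symbol from a table of 54232 Ensembl gene IDs, where each symbol matched 1 ID. All 44 members had enough reads to be tested, among 14168 genes tested.

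The livers came from 5 pair-fed (PF) and 7 alcohol-fed (AF) mice. All were male C57BL6/J mice with an age label of 8-week, and all were fed for 8 weeks. PF mice, which the labels call Control, received an isocaloric high-fat liquid diet. AF mice received the same kind of diet with alcohol at 27 g/kg/day and a weekly binge of 5 g/kg, given through an intragastric tube. According to the methods of the study, a solid Western diet rich in cholesterol and saturated fat was eaten beside the alcohol, and livers were taken one day after the last binge. Whether PF mice ate the solid diet is not stated plainly there. The values of AF mice combine the chronic dose with a recent binge. The labels number the livers as replicates without stating that each came from its own mouse, so p-values measure the spread between these samples.

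Type I interferons (alpha and beta) and type III interferons (lambda) signal through JAK kinases to ISGF3, a complex that holds STAT2 and IRF9. ISGF3 binds a DNA motif named the interferon-stimulated response element (ISRE). Type II interferon (gamma) activates factors that bind the gamma-activated site (GAS), and the factor IRF1, made early, carries the response on. In liver, hepatocytes, Kupffer cells (the resident macrophages) and sinusoidal endothelium can all respond to interferon. By textbook knowledge 31 members were assigned mainly to ISGF3 and 13 mainly to the gamma response, although most ISGs respond to both.

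Promoter sequences show the 2 motifs in these genes. RefSeq windows on GRCm38.p6, from 250 bases before to 50 bases after a start site, were held for 34 of the 44 members. No window was held for Ifi27, Dhx58, Mx1, Mx2, Oas2, Usp18, Rtp4, Parp9, Parp14 and Iigp1. The ISRE was searched on both strands as GAAA, any 2 bases, GAAA, and the GAS as TTC, any 3 bases, GAA. An ISRE match was found for 17 of the 34 members and for 3.99% of 27025 genes with a window. A GAS match was found for 11 of the 34 (32.4%) and for 9.55% of all genes. A match is a description of the letters and not evidence of binding. The following matches with up to 10 flanking bases (fewer for Ifih1 and Ifit2, where the window ends) are printed on the strand of the gene, with the matched letters in capitals, because they belong to members that passed the test or to the classes described further on. A match that begins with TTTC lies on the other strand. ISRE matches:
Rsad2, chr12:26456553-26456582, minus strand: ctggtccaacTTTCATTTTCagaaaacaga
Oas1a, chr5:120907520-120907555, minus strand: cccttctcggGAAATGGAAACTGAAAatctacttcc
Ifih1, chr2:62646206-62646233, minus strand, after the start site: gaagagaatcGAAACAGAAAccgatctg
Isg15, chr4:156200865-156200906, minus strand: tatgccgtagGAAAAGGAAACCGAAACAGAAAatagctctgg
Ifit3, chr19:34583363-34583392, plus strand: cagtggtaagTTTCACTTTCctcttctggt
Ifit3b, chr19:34607759-34607788, plus strand: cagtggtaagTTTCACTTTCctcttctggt
Gbp2, chr3:142620594-142620623, plus strand: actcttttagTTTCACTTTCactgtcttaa
Irgm1, chr11:48871425-48871460, minus strand: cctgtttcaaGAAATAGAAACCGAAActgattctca
Igtp, chr11:58199512-58199541, plus strand: tctaggaactGAAACTGAAAgctgttcggg
GAS matches:
Isg20, chr7:78913341-78913369, plus strand: ctggggagggTTCTTGGAAtttttccttt
Ifit2, chr19:34550444-34550471, plus strand: catgggagcTTCCTGGAAgaatggataa
Irf8, chr8:120736177-120736205, plus strand: caaaagtgatTTCTCGGAAagagagcgct
Irf1, chr11:53769914-53769942, plus strand: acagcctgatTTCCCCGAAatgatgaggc

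The Isg15 promoter held 3 overlapping ISRE matches, and Oas1a and Irgm1 held 2 each. The stretches of Ifit3 and Ifit3b were the same in every base. In Bst2 an ISRE and a GAS match overlapped. The motifs are set beside the calls of the next paragraphs as a description, with no test of a difference. ISRE matches were found for 2 of 7 members with a window that rose in AF livers (Oas1a and Rsad2), for 1 of 2 that fell (Ifih1), and for 14 of 25 that did not pass the test. GAS matches were found for 4 of the 7 that rose (Isg20, Ifit2, Irf8 and Oas1a), for 0 of the 2 that fell, and for 7 of the 25 others.

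Few of the ISGs differed between AF and PF livers, and they did so in both directions. By edgeR's quasi-likelihood test with Benjamini-Hochberg adjustment over all genes, 8 of the 44 members (18.2%) were higher in AF livers, while 22.0% of all genes tested were higher. These were Rsad2, Isg20, Mx1, Cmpk2, Ifit2, Irf8, Oasl2 and Oas1a. Another 4 members (9.09%) were lower, while 17.8% of all genes were lower. These were Iigp1, Parp9, Ifih1 and Irf9. The other 32 did not pass the threshold of 0.05. Both shares were below those of all genes, so the ISGs as a group do not stand out by the number of calls. Their median log2 fold change was 0.13, and that of all genes was 0.04. A log2 change beyond 1 in either direction was found for 2 members (4.55%), Rsad2 and Isg20, and for 16.9% of all genes. Isg20 was the only member with every AF liver above every PF liver (2.27% of members, against 8.20% of all genes). In 0 members was every AF liver below every PF liver (9.49% of all genes).

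**Figure D1:**
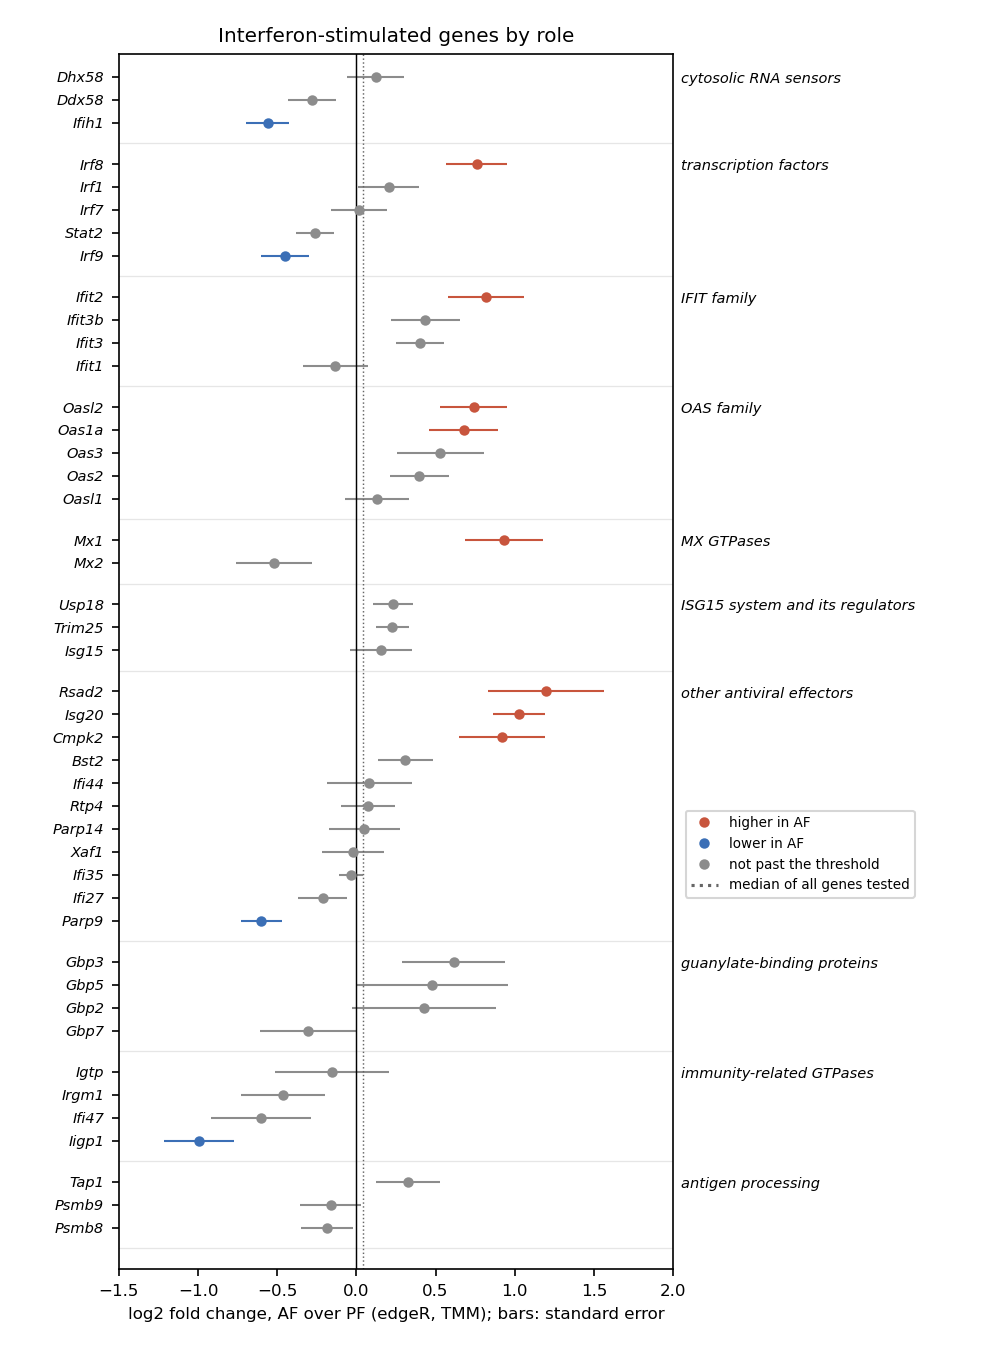
The log2 fold change of AF over PF livers (x axis) is drawn with its standard error for the 44 members, grouped by role and ordered within each group, and a dotted line marks the median of all genes tested. Points that passed the test on the right reach 1.20 (Rsad2), and those on the left reach -0.99 (Iigp1).

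Depth was similar between groups, with 24129900 to 28594027 reads on genes per PF library and 25099033 to 30578639 per AF library. Levels are given as CPM, reads of a gene per 1000000 reads on all genes, scaled with TMM factors. These factors assume that most genes do not change and were 0.832 to 0.901 for PF livers but 0.880 to 1.36 for AF livers. With library totals in place of TMM factors the median log2 fold change of all genes moved from 0.04 to 0.40. On that scale 19 members (43.2%) were higher, against 45.6% of all genes, and 1 member (2.27%), Iigp1, was lower, against 6.62% of all genes. On the first principal component AF replicate 6 (-7.73) lay nearest to the PF livers (-73.3 to -52.5), and AF replicate 1 lay farthest away (83.9).

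Among the antiviral effectors, Rsad2 had the largest increase. Rsad2 encodes viperin, which makes a chain-terminating nucleotide that stops viral RNA synthesis. The level of Rsad2 was 6.94, 10.3, 9.84, 10.8 and 11.7 CPM in PF replicates 1 to 5. In AF livers it was 8.53 CPM at the lowest, 22.0 at the median and 44.6 at the highest. In 6 of 7 AF livers Rsad2 was above the highest PF liver, and AF replicate 6 lay among the PF livers. The log2 fold change was 1.20 ± 0.37 (SE, adjusted p = 0.0198, edgeR). Cmpk2, which supplies the nucleotide that viperin uses, is the neighbour of Rsad2 (Rsad2 at chr12:26442746-26456452 on the minus strand and Cmpk2 at chr12:26469204-26479837 on the plus strand, GRCm38). Cmpk2 was at 4.28, 4.85, 5.21, 6.13 and 7.15 CPM in PF replicates 1 to 5 and at 5.51, 12.04 and 15.6 CPM at the lowest, median and highest in AF livers. Cmpk2 rose by 0.92 ± 0.27 on the log2 scale (SE, adjusted p = 0.0168, edgeR). AF replicates 6 and 7 overlapped with the PF range for Cmpk2, while the other 5 AF livers exceeded it.

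Isg20, an exonuclease that degrades single-stranded RNA, separated the groups completely. It measured 1.23, 1.56, 1.13, 1.57 and 1.54 CPM in PF replicates 1 to 5, and 2.28, 2.83 and 3.50 CPM at the lowest, median and highest in AF livers. These levels rest on 160 reads in all PF libraries and 631 in all AF libraries. The fold change was 2.04 (log2 1.03 ± 0.17, SE, adjusted p = 0.000593, edgeR). Isg20 (chr7:78913424-78920396, plus strand) shares no 50-base stretch of its transcripts with another gene.

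Parp9, by contrast, fell. It encodes an ADP-ribosyltransferase-like protein that pairs with the ubiquitin ligase DTX3L and supports interferon signaling. Its levels were 63.6, 71.5, 86.2, 80.0 and 83.1 CPM in PF replicates 1 to 5, and 37.0, 50.6 and 66.0 CPM at the lowest, median and highest in AF livers. Below the PF minimum lay 6 of the 7 AF livers, and AF replicate 2 was within the PF range. The log2 fold change was -0.60 ± 0.13 (SE, adjusted p = 0.00336, edgeR). Parp9 and Dtx3l lie on opposite strands of chromosome 16 and overlap over 458 exonic bases. Dtx3l also fell (log2 fold change -0.55 ± 0.12, SE, adjusted p = 0.00437, edgeR). The strand setting of the counting is not stated, so reads in the overlap cannot be assigned with certainty. On library totals Parp9 was at -0.25 and no longer passed (adjusted p = 0.159).

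The remaining 7 of 11 other antiviral effectors did not pass. Bst2 (tetherin, which holds budding virions at the cell surface) had the highest level per kb of transcript of all members, at 89.6 CPM per kb in PF and 111 in AF livers. Its 5 PF livers were at 90.1, 80.2, 65.1, 80.4 and 88.8 CPM, and its AF livers ran from 65.2 over a median of 98.5 to 144 CPM, with 5 of 7 above the highest PF liver (log2 fold change 0.31, adjusted p = 0.172). Bst2 was called higher by limma-voom (0.37, adjusted p = 0.0456) and by edgeR on library totals (0.66, adjusted p = 0.00780). Ifi27, a small mitochondrial protein, came after Bst2 and Iigp1 in level per kb in PF livers (40.3 CPM per kb) and had a log2 fold change of -0.21. Ifi44, Rtp4, Parp14, Xaf1 and Ifi35 had log2 fold changes between -0.03 and 0.08. Ifi35 varied little between livers, with 17.6 to 21.6 CPM in PF and 17.6 to 20.9 CPM in AF livers.

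**Figure D2:**
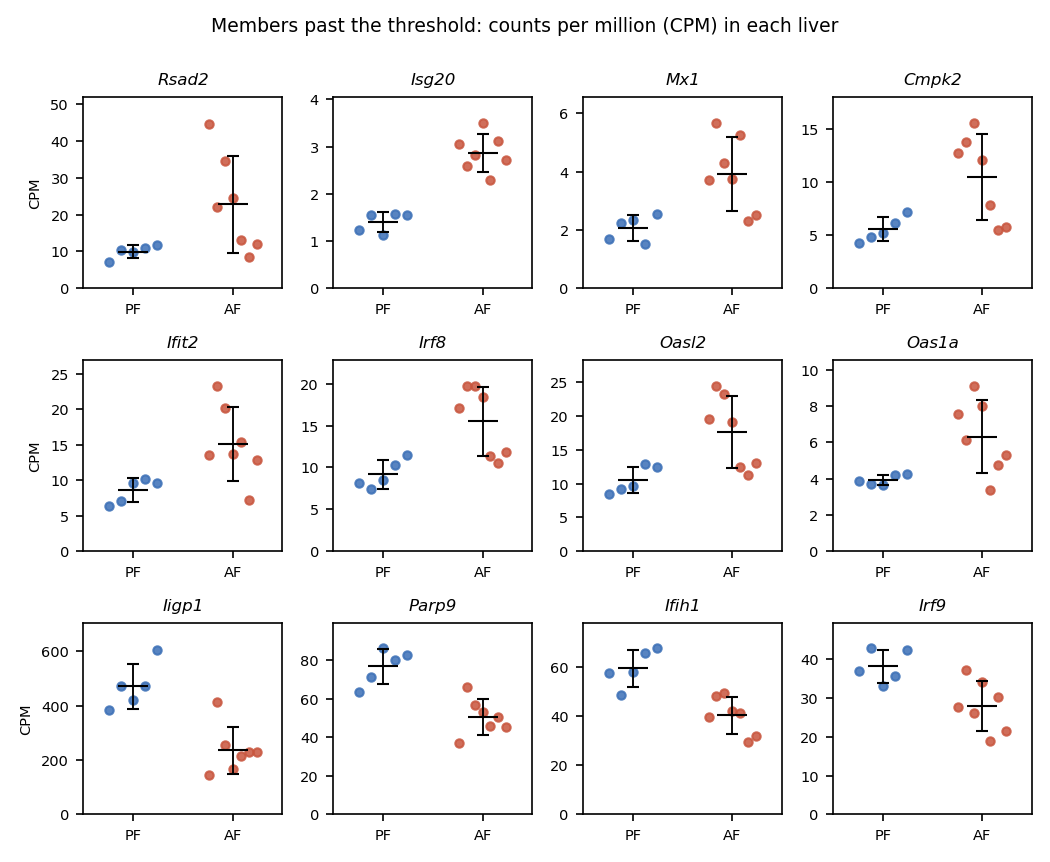
Each panel plots the CPM (y axis, from 0) of 1 of the 12 members past the threshold in the 5 PF and 7 AF livers, ordered by replicate number, with the mean and SD in black. Isg20 has no overlap between groups, while for Rsad2, Mx1 and Cmpk2 at least 1 AF liver lies in the PF range.

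In the IFIT family 1 of 4 members rose and in the OAS family 2 of 5, and none fell. Over all genes tested 22.0% rose and 17.8% fell. IFIT proteins bind foreign RNA that lacks host cap methylation. Ifit2 rose in AF livers, from 6.35, 7.14, 9.54, 10.2 and 9.59 CPM in PF replicates 1 to 5 to 7.15, 13.7 and 23.2 CPM at the lowest, median and highest in AF livers. In 6 of 7 AF livers it exceeded every PF liver (log2 fold change 0.82 ± 0.24, SE, adjusted p = 0.0169, edgeR). Ifit3, which stabilizes IFIT1 on RNA, was measured at 12.01 to 13.3 CPM in PF and 11.4 to 24.3 CPM in AF livers, where 6 of 7 AF livers were above every PF liver. Its log2 fold change of 0.40 ± 0.15 just missed the threshold (SE, adjusted p = 0.0508, edgeR), and with limma-voom the adjusted p was 0.00831. Ifit3b had a log2 fold change of 0.44 (adjusted p = 0.125). Without AF replicate 6 both passed (adjusted p = 0.0108 for Ifit3 and 0.0235 for Ifit3b). Of the 50-base stretches of Ifit3 transcripts 51.2% occur in Ifit3b too, so the split of reads between the pair is uncertain. Ifit1 was at -0.13, with AF livers at both ends of its range (6.40 to 14.5 CPM in AF and 8.86 to 12.8 CPM in PF livers).

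OAS proteins sense double-stranded RNA and make a messenger that activates RNase L. Log2 fold changes of all 5 family members measured here were above 0 on TMM factors, as were those of 7532 of 14168 genes tested. Of the 5, 2 passed the test. Oasl2, an OAS-like protein, was at 8.51, 9.20, 9.63, 12.9 and 12.4 CPM in PF replicates 1 to 5 and at 11.3, 19.1 and 24.5 CPM at the lowest, median and highest in AF livers (log2 fold change 0.74 ± 0.21, SE, adjusted p = 0.0141, edgeR). Oas1a was tight in PF livers (3.67 to 4.25 CPM) and wide in AF livers (3.36 to 9.11 CPM), and rose by 0.68 ± 0.22 on the log2 scale (SE, adjusted p = 0.0250, edgeR). Without PF replicate 2 or PF replicate 3 the adjusted p of Oas1a was 0.0564 in each case. Transcripts of Oas1a share 57.6% of their 50-base stretches with Oas1g and Oas1b, so its reads may be split between copies. Oas3 (0.53), Oas2 (0.40) and Oasl1 (0.13) did not pass. Both Oas2 (adjusted p = 0.0250) and Oas3 (adjusted p = 0.0356) were called higher by limma-voom, as on library totals. Oas3 passed without AF replicate 5 (0.67, adjusted p = 0.0205). Oas3 had the lowest level per kb of all members, at 0.391 CPM per kb in PF and 0.565 in AF livers.

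The dynamin-like GTPases Mx1 and Mx2, which block incoming viruses, had opposite signs. Mx1 was at 1.67, 2.24, 2.33, 1.49 and 2.53 CPM in PF replicates 1 to 5 and at 2.31, 3.75 and 5.66 CPM at the lowest, median and highest in AF livers. It rose by 0.93 ± 0.25 on the log2 scale (SE, adjusted p = 0.0103, edgeR), with 5 of 7 AF livers above every PF liver. Mx2, annotated as a polymorphic pseudogene, was at 4.60 to 9.01 CPM in PF and 2.45 to 6.76 CPM in AF livers (log2 fold change -0.52, adjusted p = 0.0961). Without AF replicate 4 edgeR called Mx2 lower (-0.67, adjusted p = 0.0304). In strain C57BL/6 both genes are known to carry mutations that disable the protein.

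The ubiquitin-like modifier ISG15 and its regulators did not pass. Isg15 was at 7.53, 5.17, 5.25, 6.33 and 7.06 CPM in PF replicates 1 to 5, and at 4.70, 7.19 and 9.72 CPM at the lowest, median and highest in AF livers. AF livers lay on both sides of the PF range, 3 above and 2 below (log2 fold change 0.15 ± 0.19, SE, adjusted p = 0.548, edgeR). Usp18, which removes ISG15 and dampens signaling at the type I receptor, was at 0.23, and so was Trim25, the ligase that activates RIG-I. Trim25 was at 79.0 to 110 CPM in PF and 95.9 to 123 CPM in AF livers, and 1 of the 3 genes passed at an unadjusted p under 0.05. DESeq2 called 0 of the 3 and limma-voom called 1.

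Of 3 cytosolic sensors of viral RNA 1 fell and 0 rose, where 17.8% of all genes fell and 22.0% rose. Ifih1 encodes MDA5, which detects long double-stranded RNA. It was at 57.4, 48.5, 57.9, 65.8 and 67.6 CPM in PF replicates 1 to 5 and at 29.5, 41.2 and 49.4 CPM at the lowest, median and highest in AF livers. In 6 of 7 AF livers Ifih1 lay under the PF minimum, and AF replicate 3 was inside the PF range. Ifih1 fell by 0.56 on the log2 scale (SE 0.13, adjusted p = 0.00596, edgeR), and on library totals it was at -0.18 (adjusted p = 0.440). Ddx58, which encodes RIG-I, the sensor of short RNA with a 5′ triphosphate, was at 34.1 to 47.7 CPM in PF and 20.8 to 40.9 CPM in AF livers (log2 fold change -0.28, adjusted p = 0.157). Its sign turned to 0.10 on library totals. Dhx58 (LGP2, a modulator of the other two) was at 0.12.

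The transcription factors split. Irf8, a factor of macrophage and dendritic cell development that interferon gamma induces, rose. It was at 8.12, 7.41, 8.46, 10.3 and 11.5 CPM in PF replicates 1 to 5, and at 10.5, 17.1 and 19.8 CPM at the lowest, median and highest in AF livers. AF replicates 1 to 4 were all at or above the median, and replicates 5 and 6 lay within the PF range (log2 fold change 0.76 ± 0.19, SE, adjusted p = 0.00782, edgeR). Irf9, the DNA-binding part of ISGF3, fell from 37.0, 42.8, 33.0, 35.7 and 42.5 CPM in PF replicates 1 to 5 to 18.8, 27.6 and 37.3 CPM at the lowest, median and highest in AF livers. The change was -0.45 ± 0.15 on the log2 scale (SE, adjusted p = 0.0328, edgeR). This call was lost without AF replicate 1, 3 or 7 and without PF replicate 2 or 5 (adjusted p between 0.0531 and 0.0780). Irf9 also overlaps 123 exonic bases of Rnf31 on the same strand. Stat2, the partner of Irf9 in ISGF3, was at -0.26 (adjusted p = 0.102), and its sign turned to 0.09 on library totals. Irf7, which amplifies interferon alpha production, was level (0.02), as 3 AF livers exceeded the PF range and 2 were below it. Irf1 was at 46.0, 48.3, 37.2, 27.7 and 49.2 CPM in PF replicates 1 to 5 and at 37.1, 46.4 and 77.8 CPM at the lowest, median and highest in AF livers (log2 fold change 0.20, adjusted p = 0.419).

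Immunity-related GTPases (IRGs), which coat and break the vacuoles of intracellular parasites and bacteria, were all below 0 on the TMM scale, although Igtp turned to 0.18 on library totals. Iigp1 was the member with the most CPM. Its levels were 384, 473, 421, 472 and 605 CPM in PF replicates 1 to 5 and 145, 228 and 414 CPM at the lowest, median and highest in AF livers. All but 1 of the AF livers were below every PF liver, and AF replicate 2 (414 CPM) was inside the PF range. AF livers had 50.2% of the PF level of Iigp1 (log2 fold change -0.99 ± 0.22, SE, adjusted p = 0.00387, edgeR). On library totals Iigp1 remained lower (-0.66, adjusted p = 0.0131).

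The other 3 IRGs did not pass. Ifi47 was at 43.6, 35.3, 49.0, 48.9 and 76.7 CPM in PF replicates 1 to 5 and at 18.6, 26.7 and 76.6 CPM at the lowest, median and highest in AF livers (log2 fold change -0.60, adjusted p = 0.144). Irgm1, a regulator of the effector IRGs and of autophagy, was at 83.5, 78.4, 97.2, 106 and 134 CPM in PF replicates 1 to 5 and at 41.9, 65.1 and 149 CPM in AF livers (log2 fold change -0.46, adjusted p = 0.174). Igtp (IRGM3) was at 31.1 to 77.6 CPM in PF and 26.3 to 107 CPM in AF livers (log2 fold change -0.15, adjusted p = 0.761). The highest AF value of all 4 IRGs came from AF replicate 2. Without that liver, Ifi47 (-0.97, adjusted p = 0.00341), Irgm1 (-0.77, adjusted p = 0.00356) and Igtp (-0.60, adjusted p = 0.0409) were called lower too. The members called lower then numbered 7 of 44, where 18.3% of all genes were lower in the same fit. Igtp shares 162 exonic bases with Irgm2, whose reads may mix with its own.

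Guanylate-binding proteins (GBPs), large GTPases that work with the IRGs on pathogen vacuoles, did not pass in any fit by edgeR, DESeq2 (0 of 4) or limma-voom (0 of 4) of all 12 livers on scaled counts, and 0 of 4 had an unadjusted p under 0.05. On library totals Gbp3 passed (0.98, adjusted p = 0.0297), and likewise over the 10 livers with replicate numbers 1 to 5 (0.82, adjusted p = 0.0479). Gbp3 was at 8.61, 10.7, 11.1, 13.4 and 19.2 CPM in PF replicates 1 to 5 and at 9.34, 14.6 and 38.1 CPM at the lowest, median and highest in AF livers (log2 fold change 0.61 ± 0.33, SE, adjusted p = 0.148, edgeR). Gbp2 (0.43), Gbp5 (0.48) and Gbp7 (-0.31) had standard errors of 0.30 to 0.48. For Gbp5, PF replicate 5 was at 13.5 CPM with the other PF livers between 2.66 and 4.88 CPM, and AF replicate 2 was at 19.8 CPM with an AF median of 5.60 CPM. Gbp2 and Gbp3 were high in both AF replicate 2 (50.9 and 38.1 CPM) and AF replicate 3 (35.7 and 28.5 CPM).

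Antigen-processing members did not pass either. Tap1, a chain of the transporter that loads peptides for MHC class I, was at 20.5, 20.4, 14.3, 15.8 and 26.3 CPM in PF replicates 1 to 5 and at 15.7, 22.5 and 38.4 CPM at the lowest, median and highest in AF livers (log2 fold change 0.33, adjusted p = 0.214). The immunoproteasome subunits Psmb8 (-0.19) and Psmb9 (-0.16) were below 0, and both turned positive on library totals (0.17 and 0.19). Psmb9 and Tap1 overlap over 212 exonic bases on opposite strands. Of these 3 genes 0 had an unadjusted p under 0.05, and DESeq2 and limma-voom called 0. On library totals edgeR called Tap1 higher (0.70, adjusted p = 0.0208), as it did 45.6% of all genes.

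The 2 arms of the response varied between livers in different ways. For each liver the mean difference in log2(CPM + 0.1) from the PF mean of each gene was taken over the members of an arm. Over the 31 mainly type I genes the PF livers were close together (-0.10 to 0.08). AF replicates 1 to 4 were at 0.19, 0.46, 0.48 and 0.38, and AF replicates 5 to 7 were at -0.12, -0.19 and -0.05. This split of the AF livers was singled out after the values were seen and holds for the mean over the arm, not for each gene. Of the type I genes called higher, Isg20 was above every PF liver in all 7 AF livers, and Rsad2, Ifit2 and Oas1a were so in 6. Of these 31 genes 7 rose and 3 fell (median log2 fold change 0.13), where 22.0% of all genes rose and 17.8% fell (median 0.04). On library totals 15 were higher and 0 lower (median 0.52), where 45.6% of all genes were higher and 6.62% lower (median 0.40). With limma-voom 13 were higher and 3 lower, where 28.0% of all genes were higher and 25.0% lower.

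Over the 13 mainly type II genes single livers stood out in both groups. PF replicate 5 was at 0.62, with the other PF livers between -0.29 and 0.00. AF replicate 2 was at 0.95 and AF replicate 3 at 0.27, while the other AF livers were between -0.52 and -0.15. These livers were singled out after their values were seen. PF replicate 5 was the highest PF liver for 13 of the 13 genes, which holds for 17.2% of all genes tested. AF replicate 2 was the highest AF liver for 12 of the 13, which holds for 9.51% of all genes tested, and Irf8 was highest in AF replicate 3. In this arm 1 gene rose (Irf8) and 1 fell (Iigp1), with a median log2 fold change of -0.15. On library totals 4 were higher and 1 lower and the median turned to 0.19, and without AF replicate 2 the genes called lower numbered 4. The means of the 4 GBPs reached 1.02 in PF replicate 5 and 1.56 in AF replicate 2, and those of the 4 IRGs 0.57 and 0.59. The GBPs and IRGs thus moved with the same livers, but the 6 other AF livers were at -0.49 to -1.26 for the IRGs and at -0.42 to 0.85 for the GBPs.

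**Figure D3:**
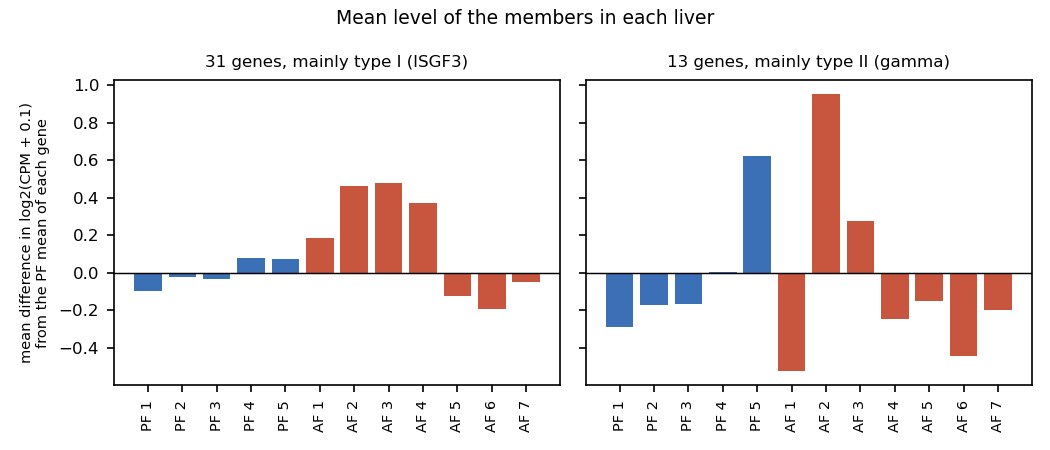
Bars give the mean difference in log2(CPM + 0.1) from the PF mean (y axis) for each PF (blue) and AF (red) liver, over 31 mainly type I genes on the left and 13 mainly type II genes on the right. The type I bars are positive in AF replicates 1 to 4 and negative in AF replicates 5 to 7, and the type II bars are largest in AF replicate 2 (0.95) and PF replicate 5 (0.62).

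**Figure D4:**
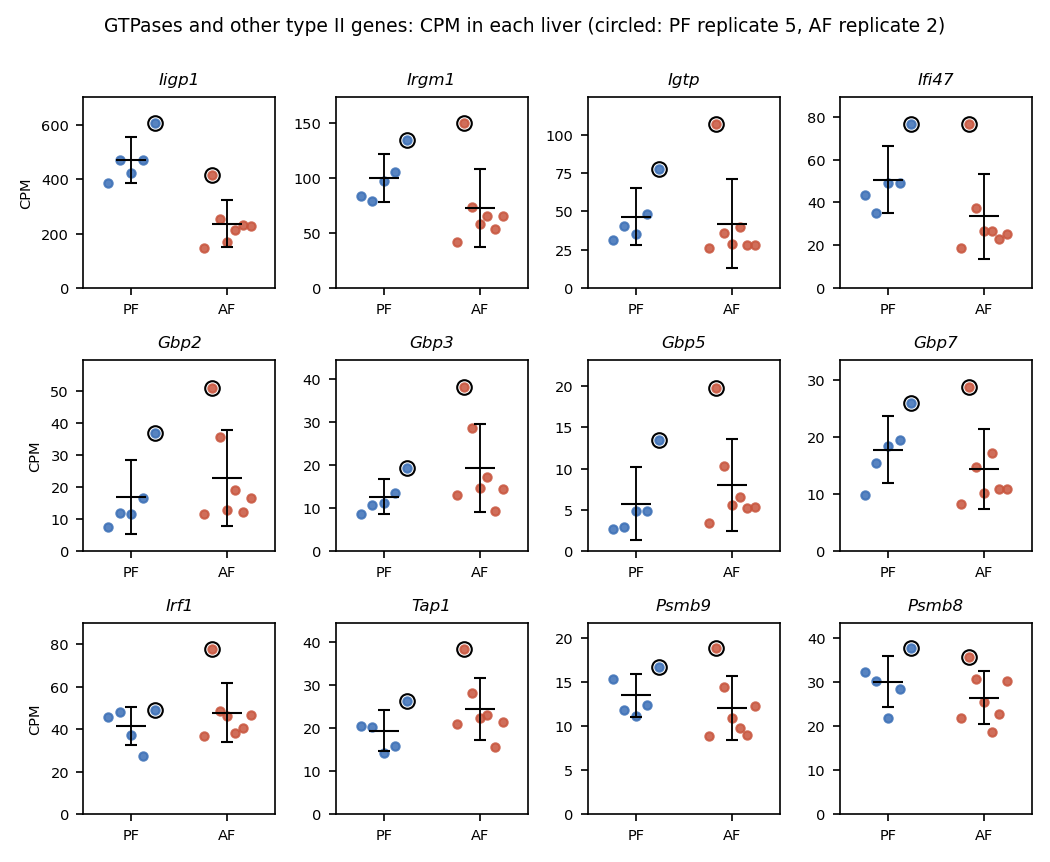
CPM (y axis, from 0) of 12 type II members is plotted in each PF and AF liver, ordered by replicate number, with mean and SD in black and circles around PF replicate 5 and AF replicate 2. Irf8, whose highest AF liver is AF replicate 3, is not drawn, and the circled AF liver is the highest AF liver in each of the 12 panels, while the other AF livers lie low for Iigp1, Irgm1 and Ifi47.

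Spread between livers was larger in AF for most members. The SD of log2 CPM was larger in AF than in PF livers for 39 of the 44 members (88.6%), and for 71.8% of all genes tested. The median SD of the members was 0.42 in AF and 0.25 in PF livers, and that of all genes was 0.30 and 0.21.

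Interferon genes themselves were barely seen. Of 20 interferon genes 18 had 0 reads in every library, a count that allows up to 3 reads or 0.0778 to 0.148 CPM per library. Ifnb1 had 1 read in all, in a PF liver. Ifng had 6 reads in PF and 8 in AF livers, with 4 in PF replicate 5, 2 in AF replicate 2 and 3 in AF replicate 5. No difference in interferon RNA was detectable at this depth.

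**Figure D5:**
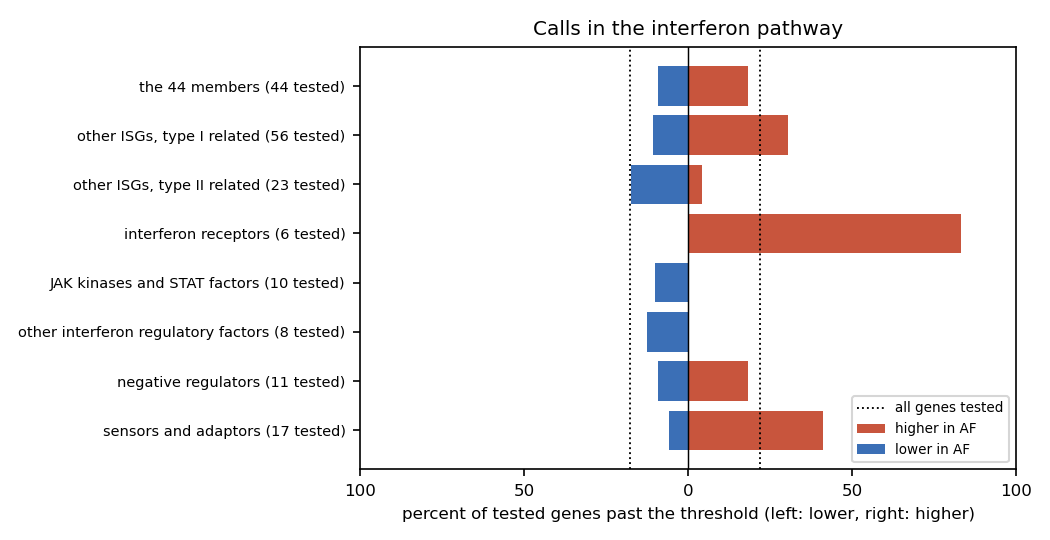
Bars give the percent of tested genes that were higher (right) or lower (left) in AF livers, for the members and for 7 other lists of interferon-related genes, with dotted lines at the shares of all genes tested (22.0% higher and 17.8% lower). Interferon receptors reach 83.3% higher, while the JAK and STAT list has 0 higher.

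Receptors for the interferons were higher in AF livers in 5 of 6 cases (83.3%), against 22.0% of all genes. Ifngr1 (0.77 ± 0.15, SE, adjusted p = 0.00150, edgeR) and Ifngr2 (0.79 ± 0.12, SE, adjusted p = 0.000345, edgeR), the chains of the gamma receptor, and Il10rb (1.13 ± 0.18, SE, adjusted p = 0.000539, edgeR), shared by the lambda and IL-10 family receptors, were each higher in every AF liver than in any PF liver. Ifnlr1, the specific chain of the lambda receptor, had the largest log2 fold change (2.15 ± 0.67, SE, adjusted p = 0.0216, edgeR), from 32 reads in PF and 307 in AF livers. This value moved from 1.76 without AF replicate 1 to 3.18 without PF replicate 1, and its call was lost without PF replicate 2, 3 or 4 (adjusted p from 0.0522 to 0.0562). Ifnar1 rose slightly (0.23, adjusted p = 0.0354), a call that was lost when any of 8 livers was left out (adjusted p up to 0.0903), and Ifnar2 did not pass (0.18, adjusted p = 0.128). Without PF replicate 2 or 3 the receptors that rose numbered 3, where 17.4% and 18.4% of all genes rose.

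Downstream of the receptors, of 10 JAK kinases and STAT factors 0 rose and 1 fell by edgeR, and 4 had an unadjusted p under 0.05. DESeq2 called 0 higher and 2 lower, and limma-voom called 2 higher and 2 lower. Over all genes 22.0% were higher and 17.8% lower by edgeR, 19.3% and 16.3% by DESeq2, and 28.0% and 25.0% by limma-voom. On library totals 4 of the 10 JAK and STAT genes were higher and 0 lower (45.6% and 6.62% of all genes). Stat5b, a factor of growth hormone signaling, fell (-0.38, adjusted p = 0.0324). Stat3, a factor of IL-6 signaling, just missed the threshold by edgeR (-0.55, adjusted p = 0.0506) and was called lower by DESeq2 (adjusted p = 0.0389), by limma-voom (adjusted p = 0.00265) and without AF replicate 6 (adjusted p = 0.000872). Among 8 other interferon regulatory factors Irf2, a repressor at IRF sites, fell (-0.50, adjusted p = 0.0108). Of 11 negative regulators tested, the phosphatases Ptpn1 (0.38, adjusted p = 0.0218) and Ptpn6 (0.45, adjusted p = 0.0479) rose and Pias2 fell (-0.42, adjusted p = 0.000862). On library totals the calls of Stat5b (-0.02, adjusted p = 0.909), Irf2 (-0.17, adjusted p = 0.168) and Pias2 (-0.07, adjusted p = 0.543) were lost, and 6 negative regulators were higher and 0 lower. The call of Ptpn6 was lost when any of 8 livers was left out (adjusted p up to 0.0963) and with DESeq2 (adjusted p = 0.0553), and without PF replicate 2 or 5 neither phosphatase passed. The call of Stat5b was lost when any of 7 livers was left out (adjusted p up to 0.0783).

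Upstream of interferon production, 7 of 17 sensors and adaptors rose and 1 fell, while 22.0% of all genes rose and 17.8% fell. On library totals 12 were higher and 0 lower (45.6% and 6.62% of all genes), and limma-voom called 10 higher and 2 lower (28.0% and 25.0% of all genes). The endosomal receptors of nucleic acids Tlr8 (1.501 ± 0.32, SE, adjusted p = 0.00311, edgeR), Tlr9 (1.26, adjusted p = 0.0269) and Tlr7 (1.05, adjusted p = 0.00283) had the largest changes, followed by the adaptor Ticam2 (0.89, adjusted p = 0.0272) and the DNA sensor Aim2 (0.88, adjusted p = 0.0311). Tmem173 (STING) and Traf3 rose too. Mavs, the adaptor of RIG-I and MDA5, fell (-0.42, adjusted p = 0.0340), beside the fall of its partner Ifih1. Both calls of the pair were lost on library totals, and that of Mavs also without any of 8 single livers (adjusted p up to 0.0824). Of the 7 sensors and adaptors that rose, the calls of Tlr9, Ticam2, Aim2 and Traf3 depended on single livers. Without PF replicate 2 these 4 calls were lost together and 3 sensors and adaptors rose, where 17.4% of all genes rose.

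Further ISGs were read from lists of related genes. Of 56 type I related genes tested, 17 (30.4%) rose and 6 (10.7%) fell, against 22.0% and 17.8% of all genes. Ifi27l2b (1.51), Slfn3 (1.29), Tor3a (1.24), Lgals3bp (1.17) and Slfn2 (0.92) had the largest increases. Herc6, the mouse ligase that attaches ISG15, fell (-0.64, adjusted p = 0.00332), as did Dtx3l and Ifitm3 (-0.53, adjusted p = 0.0123). On library totals 27 of the 56 were higher and 0 lower, against 45.6% and 6.62% of all genes, and the calls of Herc6 (-0.27, adjusted p = 0.185), Dtx3l (-0.20, adjusted p = 0.180) and Ifitm3 (-0.19, adjusted p = 0.223) were lost. Of 23 type II related genes tested, 1 (4.35%) rose and 4 (17.4%) fell. Gm4951 (-1.39 ± 0.24, SE, adjusted p = 0.000788, edgeR) and F830016B08Rik (-1.17, adjusted p = 0.00524), which encode proteins of the IRG kind, fell like their relative Iigp1, and Gbp10 (-1.27) and the MHC class I activator Nlrc5 (-0.37) fell as well. On library totals 4 of the 23 were higher and 2 lower, Gbp10 and Nlrc5 no longer being called. Cxcl10, a chemokine for T cells, rose (1.26, adjusted p = 0.0497), with 3 of 7 AF livers above every PF liver, but 9 of the 12 omissions of a liver ended this call (adjusted p up to 0.112). Single omissions also ended the calls of Gbp10 (adjusted p up to 0.125) and Nlrc5 (up to 0.105). In the type I list 11 genes rose without PF replicate 2, where 17.4% of all genes rose. In the type II list 6 fell without AF replicate 2, where 18.3% of all genes fell. Among these 23 genes PF replicate 5 was the highest PF liver for 14 and AF replicate 2 the highest AF liver for 14.

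Markers of other cells moved between the groups, and in whole liver a change in the number of cells of a type and a change in RNA per cell cannot be told apart. Over all genes 22.0% rose and 17.8% fell by edgeR, beside which the counts of markers are given. Kupffer cell markers rose in 5 of 6 cases (3 without PF replicate 1 or 2), with a summed level of 616 to 886 CPM in PF and 891 to 2782 CPM in AF livers. The highest sum was in AF replicate 3 and the lowest AF sum in AF replicate 1. Markers of recruited macrophages rose in 4 of 8 cases (57.3 to 278 CPM in PF and 118 to 1551 CPM in AF livers). Irf8, Tlr7, Tlr8 and Tlr9, which macrophages and dendritic cells express strongly, moved in the same direction as these lists, and the part of the cells in their change was not tested.

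The lists of stellate cells (5 of 6), bile duct cells (4 of 5) and sinusoidal endothelium (1 of 6) held further genes that rose. Of 8 hepatocyte genes 3 fell (98759 to 141930 CPM in PF and 51933 to 103210 CPM in AF livers), in the same direction as Iigp1, Parp9 and Ifih1, and 5 fell without AF replicate 6 or 7. DESeq2 called 6 and limma-voom 7 of the hepatocyte genes lower, beside 16.3% and 25.0% of all genes. Lymphocyte markers were sparse. T and NK cell markers summed to 8.88 to 15.3 CPM in PF and 4.77 to 9.81 CPM in AF livers, with Cd4 lower, and B cell markers to 10.8 to 40.7 CPM in PF and 3.31 to 12.9 CPM in AF livers, with Jchain lower. The call of Jchain was lost without PF replicate 5 (-1.23, adjusted p = 0.0621), and limma-voom called 4 of the 5 B cell genes lower. PF replicate 5, the PF liver with the highest type II genes, had the highest PF sum of both lists, and also of the lists of Kupffer cells, recruited macrophages, bile duct cells and plasmacytoid and conventional dendritic cells. AF replicate 2 had the second-highest AF sum of both lymphocyte lists and of the Kupffer cell list, and the highest of conventional dendritic cells. It did not lead in the other lists. Its sum was 336 CPM for recruited macrophages (118 to 1551 CPM in AF livers) and 172 CPM for bile duct cells (70.3 to 1090 CPM). Both of these lists hold Spp1, so their sums, also in PF livers, are not separate observations. For plasmacytoid dendritic cells the sum in AF replicate 2 was 124 CPM (85.5 to 163 CPM in AF livers). That list holds Bst2, itself one of the ISGs followed here, at 102 CPM in AF replicate 2 and 88.8 CPM in PF replicate 5. The plasmacytoid sums are thus mostly the level of a member and do not describe these cells separately. The part of any of these cells in the type II pattern was not tested. Of 6 neutrophil genes, 4 plasmacytoid and 5 conventional dendritic cell genes tested, edgeR and DESeq2 called 0. Limma-voom called 1 plasmacytoid gene higher, which was the member Bst2, a call already given above. In these lists 2, 1 and 0 genes had an unadjusted p under 0.05. Without PF replicate 2 or 4 edgeR called 2 neutrophil genes lower. No marker of any list was at 0 in all libraries.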

How the data were processed

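Whole-liver mRNA of 5 PF and 7 AF mice was sequenced by the authors from poly(A) RNA (TruSeq Stranded kit). The submitters' notes name FastQC 0.10.1, TopHat2 2.0.13 and HTSeq 0.10.0 on GRCm38. Annotation and strand setting of the counting are not given in the sources used here. The authors deposited raw read counts per Ensembl gene for 12 libraries, without normalization. Their own Cuffdiff2 comparison was not used. No column was left out.

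Columns were assigned by group and replicate number in their names. Of 54232 IDs, 54165 were named by GENCODE M21. With R 4.3.3 and edgeR 4.0.16, counts were filtered with filterByExpr, scaled by TMM and compared between AF and PF with the quasi-likelihood F test, no covariate being used (Benjamini-Hochberg, threshold 0.05, two-sided). The SE was derived from the F statistic. Alternatives were RLE, upper-quartile and unscaled library totals, DESeq2 1.42.0, limma-voom (limma 3.58.1) with quality weights, a filter at 1 count, a replicate block and each library left out. The ISGs, arms, marker and pathway lists were chosen with earlier results of these data known. For chosen members each PF liver is given beside the lowest, median and highest AF value. These were mainly members with the largest changes, the highest levels, the smallest p of a class or classes with opposite calls. From the pathway lists up to 5 genes past the threshold were named by size of change, and 1 further gene is not reported here. Per-kb levels use merged exons of GENCODE M21. Motifs were searched in RefSeq promoter windows (GRCm38.p6), and of 41 windows 36 were matched to a transcript by the bases after the start.

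On simulated counts (13989 genes tested) 61 of 97 genes changed 2-fold and 94 of 97 changed 4-fold were recovered, with 8 false calls. Reads carry no molecular identifiers, so limits from counts cover counting error only. Copies were looked for within groups, where the 31 pairs of libraries differed by at least 21.2 times the counting noise.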

Additional observations from a re-analysis of the deposited data

Results flagged for a closer look

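For 8 of 88 groups of values (44 members in 2 groups) 1 liver lay far from the others by Dixon's criterion, where chance gives about 1 in 20, or 4.4. The members were measured in the same livers and many vary together, so the 8 are not independent and were not tested against 4.4. In AF replicate 2 the highest value stood apart for Ifi47 (76.6 CPM), Irf1 (77.8 CPM), Gbp5 (19.8 CPM), Igtp (107 CPM), Irgm1 (149 CPM) and Iigp1 (414 CPM). All 6 genes are mainly type II genes. In PF replicate 5 the highest value of Gbp5 stood apart (13.5 CPM). In PF replicate 3 the lowest value of Irf7 stood apart (27.5 CPM), the mainly type I gene among the 8.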

How the results depend on the processing

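Under DESeq2, RLE normalization and a filter at 1 count the same 8 members were higher and the same 4 lower. On library totals 19 members were higher and 1 lower (all genes 6458 and 938), and limma-voom called 14 members higher (3972 of all 14168 genes), in each case with the 8 among them. Ifi35 (0.33) and Tbk1 (0.28), below 0 and not called on TMM factors, turned positive and were called on library totals. Leaving out each library gave 7 to 10 members higher and 3 to 7 lower, where 7 came without AF replicate 2 (over all genes 2519 to 3574 higher and 2119 to 2923 lower). The replicate block on replicates 1 to 5 gave 10 higher and 3 lower (all genes 3342 and 2914), and the same 10 livers without the block 11 and 3 (all genes 3613 and 3090), an alternative added after the data were seen. Same-numbered livers correlated weakly in their deviations (0.00, -0.07, 0.12, 0.08 and 0.12), and only replicate 3 correlated best with its own number. Weak correlations over so few livers cannot exclude a pairing by number, and the main fit used none. Among the members, calls lost in any of these were those of Irf9, Ifih1, Parp9 and Oas1a. Among other genes, Clec4f, Cxcl10, Ifnar1, Mavs, Nlrc5, Oas1c, Oas1g and Ptpn6 lost their calls with a filter at 1 count. Isg20, Mx1 and Oas3 rest on few reads, and interferon genes are below what this depth can compare. The cause of these changes was not tested.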
